A study of Drosophila melanogaster with 26 samples.

Results

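The genes 18w, Toll-6, Toll-7 and Tollo encode 4 of the Toll-family receptors of Drosophila and are examined here as a set, 4 of the 14220 genes listed in every library. They were picked by name, as zygotic Toll-family receptors that act downstream of the pair-rule genes, and 18w was picked because it is high in the Zf5 libraries of these same data. The difference between Zf5 and wild type is therefore a description for these 4 genes and was not tested. RNA was sequenced from 26 samples of embryos at nuclear cycles 13 to 14, each a pool of 3 embryos, in a series that removed the fifth of Zelda's zinc fingers, Zelda being a maternally supplied transcription factor that activates early zygotic genes. Wild type (WT) comprised 3 libraries of day 1, with genotype label sfGFP-ZLD, and 6 libraries of day 2, with genotype label H2B-EGFP, so both sets carry a fluorescent fusion. The zinc finger mutant, Zf5, had genotype label mNG-ZF5 GLC in 3 libraries of day 1 and 6 of day 2. The third genotype, Zld294, had 8 libraries, all of day 3, so its differences from WT cannot be told apart from the day. The labels do not spell out the term GLC, and they name no promoter or further allele for these genotypes. Values are TPM, a level corrected for transcript length and scaled to 1000000 in each library, so levels of different genes can be compared.

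Toll-family receptors are single-pass membrane proteins with leucine-rich repeats outside the cell. Tl itself, the founding member, is supplied maternally and patterns the dorsal-ventral axis, whereas 18w, Toll-6 and Tollo are transcribed by the embryo in overlapping transverse stripes under the control of pair-rule transcription factors such as Eve and Runt. In the gastrulating germband, differences in these receptors between neighbouring cells direct the planar polarity of myosin II, which drives the cell rearrangements that lengthen the body axis. Toll-7 is best known as a receptor in antiviral defence and in the nervous system, and is also zygotically transcribed.

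The altered gene was checked first. Levels of zld, as mean ± SD in TPM over the libraries of a group, were 1200 ± 248 on day 1 and 936 ± 44.7 on day 2 for WT, 692 ± 276 and 532 ± 261 for Zf5, and 8.77 ± 15.5 for Zld294. Within Zld294, replicates 7 and 8 had 43.2 and 20.2 TPM of zld, whereas the other libraries ran from 0.0873 to 2.39 TPM. The part of this difference in the receptor levels was not tested. A gene-level TPM cannot show the loss of a single zinc finger. All 9 blastoderm markers (eve, ftz, Kr and others) reached 1 TPM in at least 1 library of every group, and all 5 pole cell markers did too. Of the latter, nos, gcl and CycB are also maternal transcripts of the score below, so this does not show pole cells. Of the 9, 2 were called lower in Zld294 than in WT and 0 higher, where 7.52% of all genes tested were lower. They were Sry-alpha (log2 difference −3.77, SE 0.84, limma adjusted p = 0.00478) and nullo (−2.43, SE 0.79, limma adjusted p = 0.044). The nullo call was lost in 14 of 26 alternative settings. Of 12 follicle cell and adult female markers, 0 reached 1 TPM in any WT library, 3 did in Zf5 and 1 in Zld294. Their summed level was 0.0750 to 1.52 TPM in WT, 0.294 to 5.69 in Zf5 and 0.866 to 28.4 in Zld294, and their part in the results below was not tested. Replicates 1, 4 and 6 of Zf5 day 2 stood apart, with the lowest median correlations with the rest of their group, 0.886, 0.911 and 0.881. This choice followed no stated limit, and replicate 3, the next at 0.920, was kept. Differences of the receptors between groups that rest on Zf5 day 2 are given with and without replicates 1, 4 and 6. Relations within Zf5 day 2 are given with and without replicates 4 and 6, since leaving out all 3 leaves too few. For 18w, Toll-7, Toll-6 and Tollo the Zf5 minus WT difference averaged over the days was 2.93, 1.46, 1.32 and −1.18 with them and 2.86, 1.45, 0.80 and −1.54 without them.

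A maternal score served as a guide to embryo age within the labelled window. It was the mean log2(TPM + 1) of 25 maternally loaded transcripts such as bcd, nos and smg, which are cleared as cycle 14 proceeds. The score ran from 5.77 to 8.05 in WT, from 4.29 to 8.32 in Zf5 and from 7.14 to 8.07 in Zld294. Zf5 replicate 1 of day 1 and replicates 4 and 6 of day 2 lay below every WT library, at 5.25, 5.03 and 4.29. A second score over 16 genes that rise late in cycle 14, such as en, wg and the Hox genes, was 0.0130 to 1.10 in WT, 0.137 to 2.79 in Zf5 and 0.0555 to 2.15 in Zld294. Of its genes, 6 of 10 tested were called higher in Zld294 than in WT, where 8.64% of all genes tested were. In Zf5 it was 7 of 13, where 3.1% were, and 0 were lower in either mutant. Only 3 of the 16 could be tested among the WT libraries alone, so these calls are a description. The part of genotype and of age in this score was not tested. Whether the mutants clear the maternal transcripts at the same age as WT was not tested. Libraries of like maternal score thus need not be of like age. The part of embryo age in the differences between groups was not tested, and values for libraries of like maternal score are given below.

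In the BDGP6.54 annotation the receptors lie in pairs on 2 chromosome arms. Toll-7 (FBgn0034476) occupies 19826578 to 19832973 and 18w (FBgn0287775) 20111511 to 20116932, both on the plus strand of chromosome arm 2R and separated by 278537 bases with 38 annotated genes. Tollo (FBgn0029114) occupies 15235619 to 15242832 and Toll-6 (FBgn0036494) 15336692 to 15344315, both on the plus strand of 3L and separated by 93859 bases with 7 annotated genes. None of the 4 overlaps another annotated gene.

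18w was the receptor with the widest range. In WT of day 1 its level was 3.45, 0.363 and 30.4 TPM in replicates 1 to 3. In WT of day 2 the 6 libraries ran from 0 through a median of 0.0524 to 8.003 TPM. WT was thus near 0 in most libraries, with replicate 3 of day 1 and replicate 5 of day 2 the highest of their groups. In Zf5 of day 1 it was 81.9, 38.7 and 76.5 TPM. In Zf5 of day 2 it ran from 0 through a median of 10.7 to 54.1 TPM, with replicates 2 and 4 high and replicates 1 and 3 at or near 0. All 3 Zf5 libraries of day 1 were above the highest WT library of that day, and 3 of the 6 of day 2 were above the highest WT library of day 2. Zld294 ran from 0 through a median of 0.893 to 10.0 TPM, within the WT range in all 8 libraries. The Zf5 minus WT difference of mean log2(TPM + 1) was 3.46 on day 1 and 2.40 on day 2.

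Toll-7, on the same chromosome arm as 18w, had the lowest mean of the 4 over all 26 libraries, 0.959 TPM, although in Zf5 of day 1 its mean of 4.60 TPM was above those of Toll-6 (2.73) and Tollo (3.55). In WT of day 1 it was 0.0921, 0 and 0.721 TPM, and in WT of day 2 it was listed at 0 in all libraries but replicate 5, which had 0.121 TPM. Zf5 of day 1 had 7.52, 2.01 and 4.27 TPM, all above the WT libraries of that day. Zf5 of day 2 ran from 0 through a median of 1.01 to 2.81 TPM, and 4 of its 6 libraries were above the highest WT library of that day. The Zf5 minus WT difference on the log2(TPM + 1) scale was 2.06 on day 1 and 0.86 on day 2. Zld294 ran from 0 through a median of 0.174 to 1.23 TPM, and 3 of its 8 libraries exceeded every WT library. On day 1, the non-overlapping higher ranges of 18w and Toll-7 can be read against all genes: 16.6% of 7172 genes were higher in every Zf5 library than in every WT library of that day, and because the choice of 18w used this contrast nothing is read from the count of members.

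Toll-6 was below 1 TPM in most libraries, reaching it in 7 of 26. In WT of day 1 it was 0.959, 0.226 and 0.574 TPM, and WT of day 2 ran from 0 through a median of 0.0460 to 1.33 TPM. Zf5 of day 1 had 4.82, 0.508 and 2.85 TPM. Zf5 of day 2 ran from 0 through a median of 1.37 to 36.0 TPM, where replicate 6 held the highest value and replicate 4 the next, at 8.25 TPM. These are libraries that stood apart and had the lowest maternal scores. The Zf5 minus WT difference was 1.05 on day 1 and 1.59 on day 2, and the ranges overlapped on both days. Zld294 ran from 0.0727 through a median of 0.485 to 0.951 TPM, below 1 TPM in all 8 libraries.

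Tollo, in contrast, was detected in all 26 libraries and reached 1 TPM in 25. WT of day 1 had 19.0, 18.4 and 7.55 TPM, and WT of day 2 ran from 6.77 through a median of 10.4 to 37.5 TPM. Zf5 of day 1 was lower in level, at 8.75, 1.03 and 0.855 TPM. Zf5 of day 2 was split, from 1.82 through a median of 17.1 to 42.8 TPM, with replicates 2 and 5 under 2 TPM and replicates 3, 4 and 6 above 26 TPM. The Zf5 minus WT difference was −2.17 on day 1 and −0.20 on day 2, with overlapping ranges on both days. Zld294 ran from 1.26 through a median of 2.92 to 7.75 TPM, and 7 of its 8 libraries lay below the lowest WT library.

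**Figure D1:**
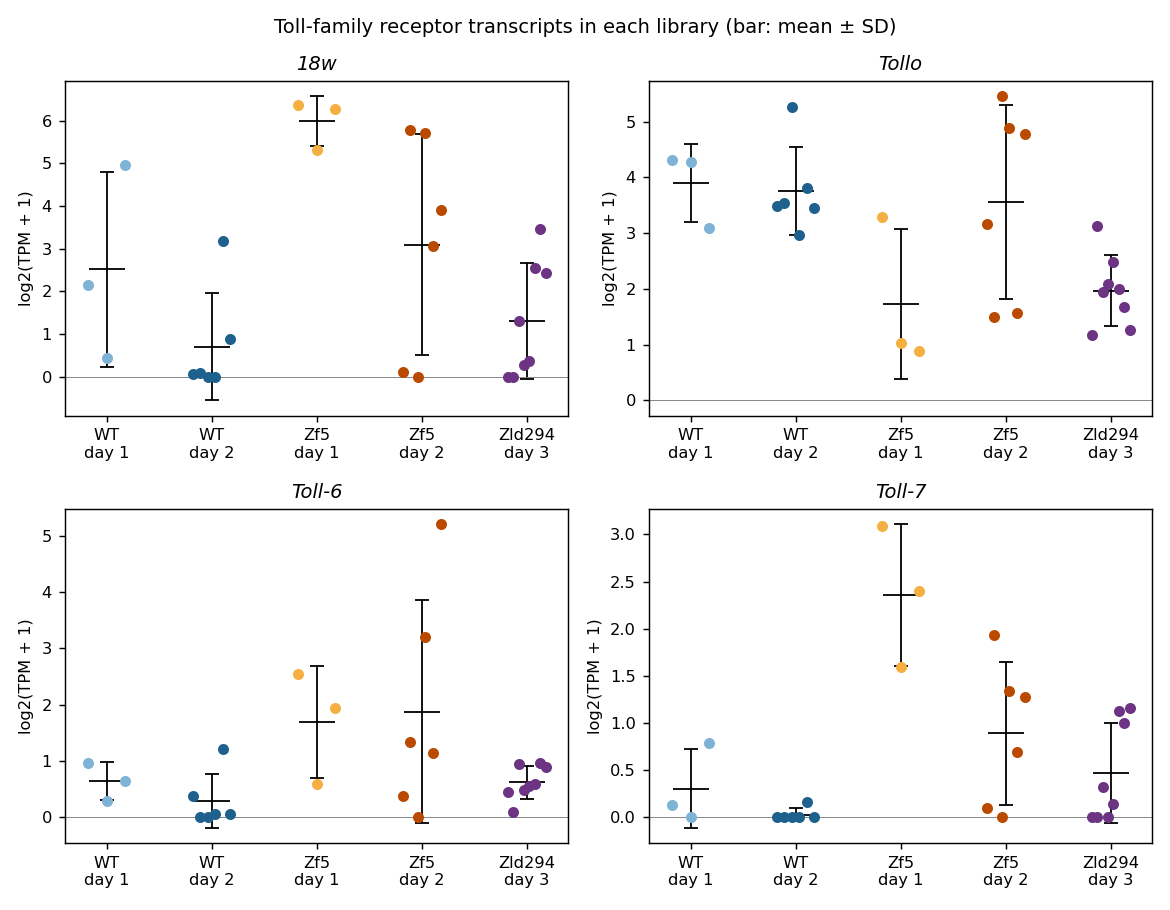
Levels of the 4 receptors as log2(TPM + 1), with a point for each of the 26 libraries and a bar for the mean ± SD of each group (n = 3, 6, 3, 6 and 8 from left to right). 18w and Toll-7 lie highest in Zf5 of day 1, Toll-6 has 1 library of Zf5 day 2 far above the rest at 36.0 TPM, and 7 of 8 Zld294 points for Tollo lie below the lowest WT point.

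Ordered by group mean, 18w ran from WT of day 2 (1.49 TPM) through Zld294 (2.66), WT of day 1 (11.4) and Zf5 of day 2 (21.2) to Zf5 of day 1 (65.7). Toll-7 had the order WT of day 2, WT of day 1, Zld294, Zf5 of day 2, Zf5 of day 1, from 0.0202 to 4.60 TPM. Toll-6 had the order WT of day 2, Zld294, WT of day 1, Zf5 of day 1, Zf5 of day 2, from 0.286 to 7.89 TPM. Tollo had a different order, from Zld294 (3.28 TPM) through Zf5 of day 1 (3.55), WT of day 2 (14.7) and WT of day 1 (14.97) to Zf5 of day 2 (18.2). For each receptor, each group in these orders overlapped its neighbour in range. An overlap of ranges is no test of a difference between neighbours, so the order is a description.

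The receptor with the highest level was not the same in every library. Tollo was the highest of the 4 in 8 of 9 WT libraries and 18w in the remaining one. In Zf5 18w was highest in 6 of 9 libraries, Tollo in 2 and Toll-6 in 1. In Zld294 Tollo was highest in 5 of 8 and 18w in 3. In no library was Toll-7 the highest.

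The stated choice of the receptors did not use the comparison of Zld294 with WT, which asks how the receptors differ in these embryos. It shares the WT libraries with the contrast that was used, and the receptors were chosen with earlier results of these data known. Tollo was lower in Zld294, at 3.28 ± 2.10 TPM (SD, n = 8) against 14.8 ± 9.55 TPM (SD, n = 9) in WT, a 4.50-fold ratio of means. The log2 difference was −1.83 (SE 0.32, limma adjusted p = 0.000705), and 8 of 8 Zld294 libraries were below the WT median of 10.7 TPM. The ranges overlapped through replicate 2 of Zld294, at 7.75 TPM. 18w had a log2 difference of −0.01 (SE 0.72, limma adjusted p = 0.998), and Toll-7 of 0.35 (SE 0.20, limma adjusted p = 0.258), where no WT library reached 1 TPM of Toll-7 and the 3 that did were of Zld294. An adjusted p above the threshold does not show that levels were alike. Toll-6 was not tested, since too few libraries reached 1 TPM. Of the 3 receptors tested, 1 was called, lower, where 7.52% of the 7395 genes tested were called lower, 8.64% higher and 16.2% in either direction. With median-ratio scaling the calls were 445 higher and 647 lower in place of 639 higher and 556 lower. In bulk embryos, fewer cells of a type and less RNA per cell cannot be told apart, and because the labels do not say how the pools were collected, p-values measure only the spread between these samples.

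The Tollo difference held under all 26 alternative settings, with log2 fold changes from −2.15 to −1.57 and limma adjusted p-values from 6.51e-05 to 0.0322. It was −1.93 against WT of day 1 alone (limma adjusted p = 0.00556) and −1.78 against WT of day 2 alone (limma adjusted p = 0.00228). With the maternal score as a covariate it was −1.996 (limma adjusted p = 6.51e-05). With the late-gene score as a covariate, a setting chosen after seeing the data, it was −1.57 (limma adjusted p = 0.00746), and 18w then fell, with a log2 difference of −1.59 (limma adjusted p = 0.0286). Since 6 of 10 tested genes of that score were themselves called higher in Zld294, no conclusion is drawn from this setting. Toll-7 passed the filter only through Zld294 libraries, so its values in these settings support nothing.

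**Figure D2:**
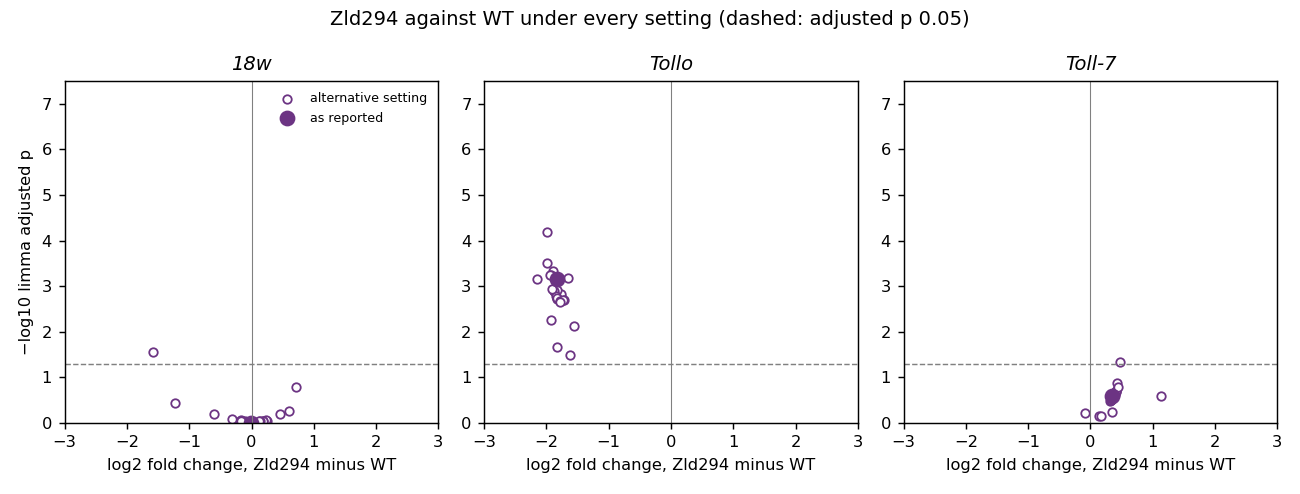
Log2 fold change of Zld294 minus WT against −log10 of the limma adjusted p-value for the 3 receptors tested, with a filled point for the value as reported and open points for the other settings; the dashed line marks an adjusted p of 0.05. All Tollo points lie above the line between −2.15 and −1.57, whereas 1 point of 18w and 1 of Toll-7 lie above it.

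Each Zld294 library was matched with the WT library nearest to it in score, within 0.111, using 6 different WT libraries. Tollo was lower in 8 of 8 of these matches. Replicate 8 of Zld294, for example, had 1.39 TPM against 19.0 TPM in replicate 1 of WT day 1. The late-gene score of matched libraries could differ, as in replicates 3 and 7 of Zld294, at 1.71 and 1.74 against 0.0897 in replicate 4 of WT day 2. 18w was higher in 5, lower in 1 and equal at 0 in 2, Toll-6 was higher in 7 and lower in 1, and Toll-7 was higher in 5 and equal at 0 in 3.

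For Zf5, whose scores reach beyond WT, matches were as far apart as 1.48 and used 5 WT libraries. 18w was higher in 7 of 9 matches, lower in 1 and equal at 0 in 1, and Tollo was higher in 4 and lower in 5. Replicate 3 of Zf5 day 1 and replicate 5 of WT day 2, at scores of 6.13 and 6.12, had 76.5 against 8.003 TPM of 18w and 0.855 against 12.98 TPM of Tollo. Replicate 5 of Zf5 day 2 and replicate 2 of WT day 1, at 7.62 and 7.59, had 7.33 against 0.363 TPM of 18w and 1.97 against 18.4 TPM of Tollo. Replicate 3 of Zf5 day 2 and replicate 3 of WT day 2, at 8.13 and 8.05, both had 0 TPM of 18w and had 42.8 and 37.5 TPM of Tollo. These values are a description, like the rest of this contrast.

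The level of a receptor was also compared with the maternal score within groups of 6 or more libraries, in 8 relations. Toll-6 in Zf5 day 2 had Pearson's r = −0.92 (exact permutation p = 0.00556, adjusted over the 8 relations 0.0444, n = 6) and Spearman's rho = −0.94 (exact permutation p = 0.0167, adjusted 0.1, n = 6). Without the 2 libraries farthest from the median score r was −0.80. Levels of Toll-6 were thus highest in the libraries with the fewest maternal transcripts.

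The other 7 relations did not pass the adjustment. In Zf5 day 2, 18w had r = −0.82 (exact permutation p = 0.0667, adjusted 0.1, n = 6) and rho = −0.71 (p = 0.136, adjusted 0.19, exact permutation), with r = −0.96 without the 2 farthest libraries. Toll-7 in that group had r = −0.82 (exact permutation p = 0.075, adjusted 0.1, n = 6) and rho = −0.71 (p = 0.136, adjusted 0.19, exact permutation), with r = −0.99 without them. Tollo in Zf5 day 2 had r = −0.20 (exact permutation p = 0.672, adjusted 0.672, n = 6) and rho = −0.03 (p = 1, adjusted 1, exact permutation).

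In Zld294, 18w had r = −0.64 (exact permutation p = 0.0749, adjusted 0.1, n = 8) and rho = −0.57 (p = 0.143, adjusted 0.19, exact permutation), with r = −0.43 without the 2 farthest libraries. Toll-7 had r = −0.73 (exact permutation p = 0.0182, adjusted 0.0726, n = 8) and rho = −0.81 (p = 0.025, adjusted 0.1, exact permutation), with r = −0.69 without them. Tollo had the opposite sign, with r = 0.76 (exact permutation p = 0.0399, adjusted 0.1, n = 8) and rho = 0.69 (p = 0.0694, adjusted 0.185, exact permutation), and r = 0.46 without them. In WT day 2, Tollo had r = 0.26 (exact permutation p = 0.661, adjusted 0.672, n = 6) and rho = 0.31 (p = 0.564, adjusted 0.644, exact permutation), with r = 0.89 without the 2 farthest libraries.

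**Figure D3:**
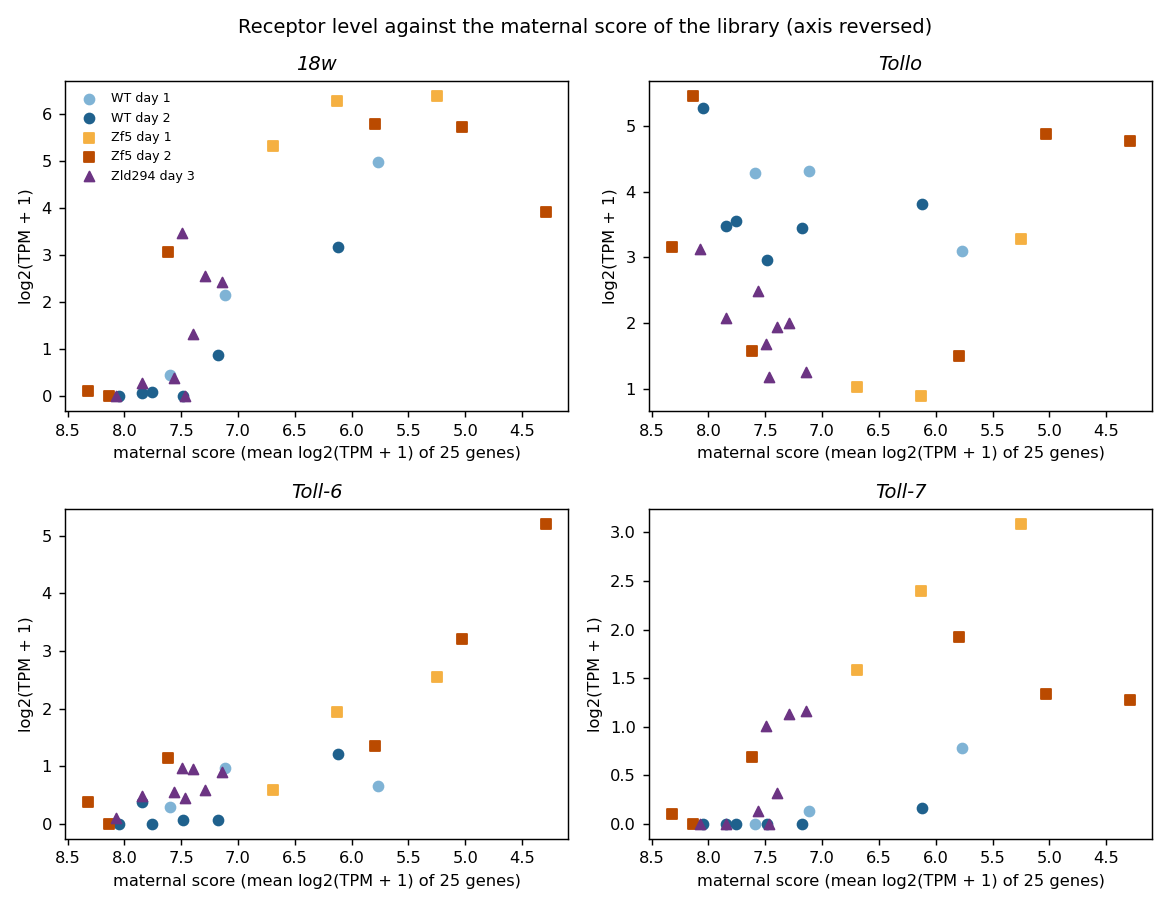
Level of each receptor as log2(TPM + 1) against the maternal score of the library, with the score falling from left to right and a point for each of the 26 libraries. Libraries with scores above 8 have 18w at or near 0, the libraries of Zf5 day 2 with the lowest scores (5.03 and 4.29) have the highest Toll-6, and the Zld294 triangles for Tollo lie below WT libraries of like score.

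The days of 1 genotype were compared with each other to see how far the receptors vary without a change of mutation. Between the WT groups, where the genotype label changes with the day, 18w had a log2 difference of −1.83 on day 2 (SE 1.02, limma adjusted p = 0.34) and Tollo of −0.15 (SE 0.50, limma adjusted p = 0.892). Neither of the 2 tested receptors was called, where 8.2% of 7160 genes were, 5.56% higher and 2.64% lower on day 2. With median-ratio scaling, which moved the median of all genes from 0.19 to 0.02, the split of calls was 189 higher and 254 lower in place of 398 higher and 189 lower. Toll-6 and Toll-7 did not reach 1 TPM in enough WT libraries to be tested.

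Between the Zf5 days all 4 receptors were tested and none was called, where limma called 0 of 7908 genes and 394 had an unadjusted p under 0.05. The log2 fold change on day 2 was −2.89 for 18w (SE 1.34, limma adjusted p = 0.856), −1.47 for Toll-7 (SE 0.55, limma adjusted p = 0.856), 1.82 for Tollo (SE 1.02, limma adjusted p = 0.856) and 0.19 for Toll-6 (SE 1.08, limma adjusted p = 0.972). Without replicates 1, 4 and 6 of Zf5 day 2 these values were −3.04 for 18w, −1.49 for Toll-7, 1.11 for Tollo and −0.87 for Toll-6. Whether the Zf5 minus WT difference itself changed with the day was examined as an interaction, in which limma called 0.478% of 8151 genes, 0.245% upward and 0.233% downward. Because it uses the Zf5 and WT values with which 18w was picked, and because Toll-7 and, in all but 1 library, Toll-6 reached 1 TPM only in Zf5, the values of the receptors are a description with no test. They were −1.07 for 18w (SE 1.79), 1.97 for Tollo (SE 1.20), 0.54 for Toll-6 (SE 1.19) and −1.20 for Toll-7 (SE 0.57). Without the 3 libraries that stood apart they were −1.21 for both 18w and Toll-7, 1.25 for Tollo and −0.51 for Toll-6.

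Upstream of the receptors, the pair-rule genes divide the embryo into repeated stripes. Of the 9, 1 was higher in Zf5 than in WT and 0 were lower, where 3.1% of 8151 genes were called higher, 2.1% lower and 5.2% in either direction, and the median log2 fold change of the list was 0.67 against 0.01 over all genes. The gene was slp2, which encodes a forkhead-domain transcription factor, with means of 2.74 and 0.665 TPM in WT, 18.3 and 6.536 TPM in Zf5 and 7.87 TPM in Zld294, days in order. Its log2 fold change was 1.93 in Zf5 (SE 0.47, limma adjusted p = 0.0212) and 2.19 without the 3 libraries that stood apart. The count of higher pair-rule genes was 1 without those 3 libraries and 2 without replicate 1 or 3 of Zf5 day 2. Over all genes these settings called 187 of 7599, 596 of 8140 and 548 of 8148 higher. With the maternal score as a covariate the count was 2 in Zf5 and 2 in Zld294, where 736 of 8151 and 1638 of 7395 genes were called higher. In Zld294 against the same WT libraries slp2 had a value of 1.83 (SE 0.43, limma adjusted p = 0.00744). It was not called against WT of day 1 alone (1.07, limma adjusted p = 0.209) or with the replicate block (1.51, limma adjusted p = 0.0719). Of the regulators of the receptor stripes, eve had a value of 0.91 (SE 0.69, limma adjusted p = 0.425) in Zf5 and −0.68 (SE 0.60, limma adjusted p = 0.466) in Zld294, and run had 0.05 (SE 0.70, limma adjusted p = 0.976) and −1.63 (SE 0.70, limma adjusted p = 0.131).

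In Zld294 the median over the pair-rule list was −0.95 against 0.12 over all genes, with 0 called lower. That count was 4 against WT of day 1 alone, 6 with the late-gene score as a covariate and 1 without replicate 8 of Zld294. Over all genes these settings called 560 of 7200, 862 of 7395 and 510 of 7356 lower.

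Of the 5 other Toll receptors listed, Tl alone was abundant, at group means from 626 TPM in Zf5 of day 2 to 1166 TPM in WT of day 1. Between the WT days Tl was lower on day 2 (−0.59, SE 0.14, limma adjusted p = 0.0363), a call lost in 11 of 15 alternative settings. Its log2 difference was −0.35 (SE 0.21, limma adjusted p = 0.325) in Zf5, not called with or without the 3 libraries that stood apart, and 0.20 (SE 0.12, limma adjusted p = 0.301) in Zld294. MstProx, Toll-4 and Tehao were at 0 in all WT and Zld294 libraries, and Toll-9 reached a group mean of 1.72 TPM in Zf5 of day 2. Of the 6 ligands of the Spätzle family, spz, the ligand of Tl, had group means of 48.1 to 132 TPM. Neither spz nor spz3, the 2 that could be tested, was called in Zf5 or Zld294.

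Among 14 surface partners and signalling genes of axis elongation, 0 were called in Zf5, where 5.2% of all genes were. The count was 1 higher without replicate 1 or 3 of Zf5 day 2 or without the 3 libraries that stood apart. Over all genes these settings called 596 of 8140, 548 of 8148 and 187 of 7599 higher. The count was also 1 with a pseudocount of 0.1 TPM, where 417 of 8151 genes were called higher. In Zld294 2 were higher and 0 lower, where 8.64% of all genes were called higher and 7.52% lower. One was the tyrosine kinase gene Src42A (0.25, SE 0.07, limma adjusted p = 0.0237), which lost its call in 7 of 26 alternative settings. The other was sas, encoding a ligand of the receptor phosphatase Ptp10D (0.80, SE 0.16, limma adjusted p = 0.00177), which passed the filter only through replicates 2, 6 and 7 of Zld294, so its call supports nothing. Against WT of day 1 alone the list had 1 higher and 4 lower, and against WT of day 2 alone or with the maternal score as a covariate 5 higher and 1 lower. Over all genes these settings called 1383 higher and 560 lower of 7200, 890 and 881 of 7256, and 1638 and 1103 of 7395. The list had 0 higher in the fit of all 26 libraries and without replicate 6 of Zld294, where 286 of 7395 and 450 of 7347 genes were called higher. It had 1 higher with median-ratio scaling and with the replicate block, where 445 and 231 of 7395 genes were. It also had 1 higher without replicate 2, 7 or 8 of Zld294, where 576 of 7391, 448 of 7355 and 488 of 7356 genes were. With the late-gene score as a covariate it had 1 lower, where 862 of 7395 genes were called lower.

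Of 14 junction and actomyosin genes tested, 0 were called in Zf5, and in Zld294 4 were higher and 0 lower, against the same shares of all genes. The largest were mthl1, encoding a G-protein-coupled receptor of the Fog ligand (0.90, SE 0.27, limma adjusted p = 0.0296), zip, the myosin II heavy chain gene (0.57, SE 0.14, limma adjusted p = 0.0106), and Rho1 (0.27, SE 0.09, limma adjusted p = 0.0487). Of 26 alternative settings, mthl1 lost its call in 9, zip in 1 and Rho1 in 19. The count of higher genes was 1 with median-ratio scaling, in the fit of all 26 libraries and with the replicate block, and 2 without replicate 1 of WT day 1, replicate 1 or 4 of WT day 2, or replicate 7 of Zld294. Without these libraries in turn, 569 of 7333, 554 of 7382, 555 of 7391 and 448 of 7355 of all genes were called higher. Against WT of day 1 alone the list had 1 higher and 2 lower. With the maternal or the late-gene score as a covariate it had 1 lower in Zld294, where 1103 and 862 of 7395 genes were. With the maternal score it had 2 lower in Zf5, where 482 of 8151 genes were. Counts over all genes in the other settings are those given for the surface partners.

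**Figure D4:**
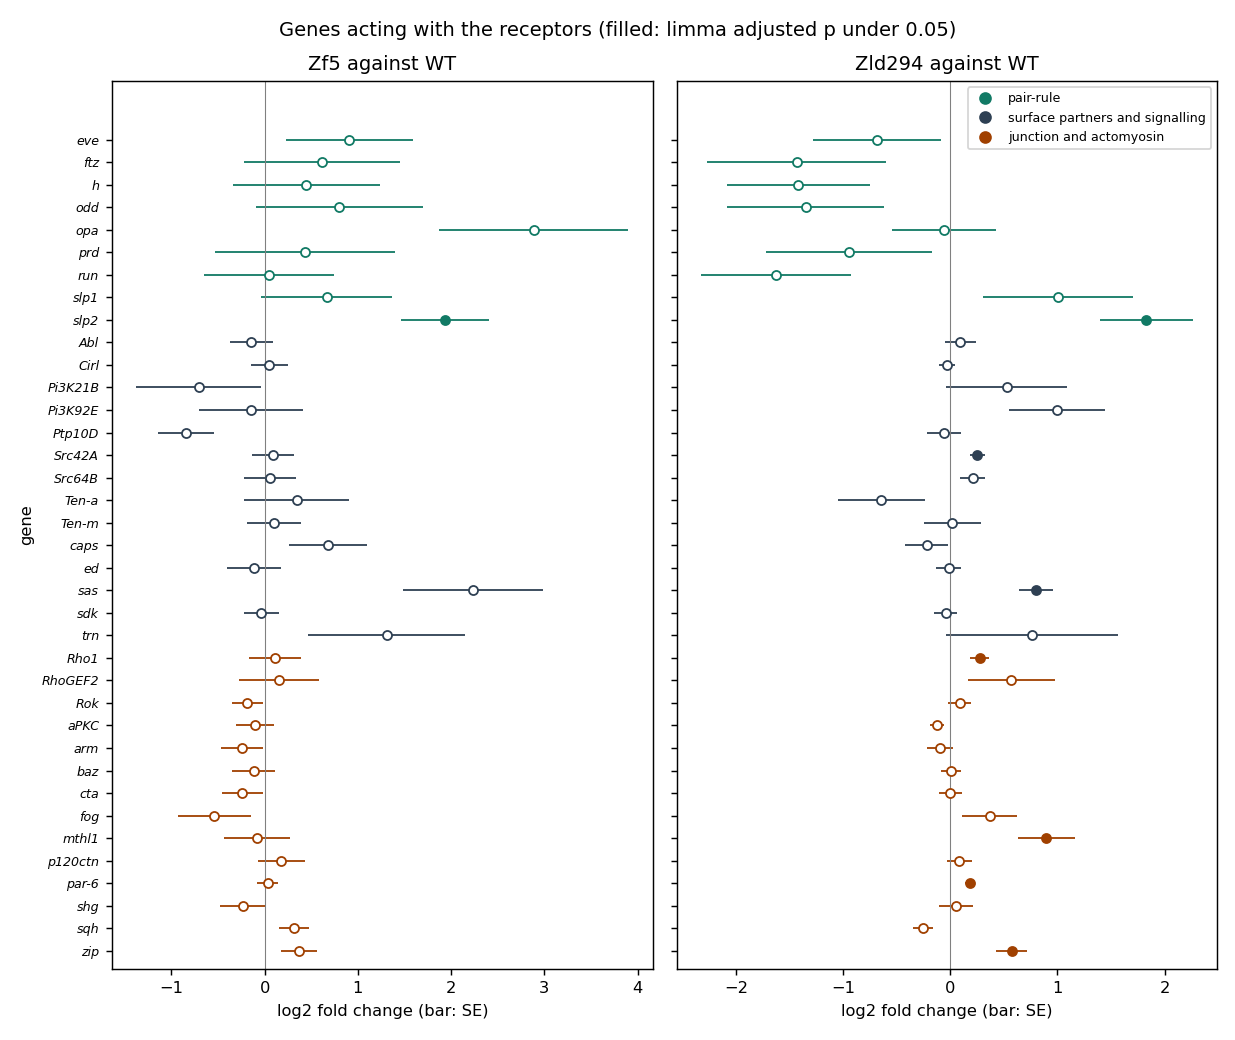
Log2 fold changes with SE bars of the pair-rule genes, surface partners and signalling genes, and junction and actomyosin genes that were tested, in Zf5 against WT (left, 18 libraries, day as covariate) and Zld294 against WT (right, 17 libraries); filled points have a limma adjusted p under 0.05. slp2 is filled in both panels, and in Zld294 most pair-rule genes lie below 0 without being filled.

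The transcripts whose profiles over the 26 libraries were most like each receptor's were named by the root mean square difference of log2(TPM + 1) after centring each gene, among 6416 genes with a mean of 5 TPM or more. For 18w, whose own root mean square deviation was 2.26, they were nub, encoding a POU-domain transcription factor (0.73), PsGEF (0.76) and SoxN, encoding a Sox transcription factor of the neurectoderm (0.80), against a median of 2.39 over all genes. They were picked for this likeness. Their group means did not keep the order of 18w: nub had 6.17 and 0.740 TPM in WT of day 1 and day 2, 22.8 and 25.6 TPM in Zf5 and 1.39 TPM in Zld294, so that Zf5 of day 2 was above Zf5 of day 1. For Tollo, whose own deviation was 1.34, they were sdt, encoding a scaffold protein of the apical Crumbs complex (0.86), wda (0.93) and Ndfip (0.94), against a median of 1.50. Tollo had no profile as close, relative to its own deviation, as those of 18w. Toll-6 and Toll-7 were too low for this measure.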

How the data were processed

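Total RNA of pools of 3 embryos was sequenced in 26 samples. The deposited values were TPM per gene; the unit was read from the values, since each column sums to 1000000. Per the submitters' processing notes, kallisto and limma were among the tools and BDGP6 the build, with no role or version given. TPM keeps no read depth, so the depth per sample is unknown and no counting interval is given. Symbols were matched to BDGP6.54 (Ensembl release 115), in which 13999 of 14220 were found. The members and gene lists were chosen with earlier results of these data known.

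Comparisons used limma 3.58.1 in R 4.3.3 (lmFit, eBayes with trend) on log2(TPM + 1), with Benjamini-Hochberg adjustment over all genes with at least 1 TPM in 3 libraries and a threshold of 0.05. Fold changes on this scale understate those of low genes. Zf5 was compared with day as a covariate. Named genes were all 4 receptors, of each list the 3 largest changes past the threshold, and the 3 genes most like each receptor. Same-numbered WT and Zf5 samples of a day did not consistently deviate together (4 of 9 pairs with a correlation above 0.1, range −0.59 to 0.71), so numbers were not treated as pairs. This check did not cover Zld294 or pairs across days, and it cannot exclude pairing. The analysis was tested on simulated data. Permutation tests used SciPy 1.17.1 in Python 3.11.15. Alternatives were another pseudocount (0.1 TPM), no filter, median-ratio scaling, 1 fit of all 26 libraries, score covariates, the replicate block and leaving out libraries. The list names cysts and Shroom were not matched.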

Additional observations from a re-analysis of the deposited data

Results flagged for a closer look

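In WT of day 2, replicate 5 stood far from its 5 companions for 18w (8.003 TPM, with the gap to the next library making 0.723 of the group's range), Toll-6 (1.33 TPM, 0.693), Toll-7 (0.121 TPM, with all other libraries at 0) and the late-gene score (0.830, 0.629). These 4 values belong to 1 library. In the same group, replicate 3 stood far above the others for Tollo, at 37.5 TPM (0.634). The limit was 0.625 for 6 samples, and 18 groups of values were examined. About 1 in 20 would pass by chance for independent, normally distributed values, a condition that groups with many zeros do not meet. For Toll-7 any value above 0 in replicate 5 would have passed, since the others were at 0.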

How the results depend on the processing

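TPM without depth limits what can be said of Toll-6 and Toll-7, and zeros are listed values. Of 481 alternative values for the 30 main results, 426 were counted as unchanged. For tested values this meant the same direction and side of the threshold. For counts of called genes it meant a count near the main one, and for Zf5 minus WT differences a shift below the SD within groups. For relations without the 2 farthest libraries only the direction was compared. Whether replicate numbers pair the samples is not known, and the correlations of same-numbered samples do not settle it. With the replicate block, the genes called were 559 in place of 1195 (Zld294 against WT), 0 in place of 587 (WT days), 16 in place of 39 (interaction) and 193 in place of 424 (Zf5 against WT). With the block Tollo stayed called in Zld294 (−1.62, limma adjusted p = 0.0322), and the direction changed for Tollo between the WT days (0.20) and for Toll-6 between the Zf5 days (−1.12). The cause of the changes below was not tested.

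With all 26 libraries in 1 fit the counts were 686 (Zld294), 350 (WT days), 3 (Zf5 days), 100 (interaction) and 1179 (Zf5 against WT). With the maternal score they were 2741, 2715, 1, 178 and 1218. Zld294 gave 1943 calls against WT of day 1 alone and 2312 with the late-gene score. Leaving out 1 library gave 919 to 1369 calls for Zld294, 87 to 1215 for the WT days, where replicate 1 of day 1 gave the lowest and replicate 5 of day 2 the highest, and 281 to 869 for Zf5 against WT, lowest without replicate 1 of WT day 1 and highest without replicate 1 of Zf5 day 2.

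In Zld294 18w was 0.25 with a pseudocount of 0.1, 0.72 with the maternal score, 0.60 against WT of day 2 alone, −1.59 with the late-gene score and −0.31 to 0.45 without 1 library. Toll-7 was 0.47 with the maternal score and −0.093 with the late-gene score. Tollo between the WT days was −0.55 to 0.064 without 1 library. Toll-6 between the Zf5 days was −0.27 with a pseudocount of 0.1, −0.87 without the 3 libraries that stood apart and −0.48 to 0.61 without 1 library, and its interaction was −0.51 and −0.13 to 0.96. The Toll-7 difference of Zf5 minus WT was 3.29 with a pseudocount of 0.1. The relation of Tollo to the maternal score in Zf5 day 2 was 0.63 without the 2 farthest libraries.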

Other observations

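Between Toll-7 and 18w the annotation places 38 genes, of which 12 are listed in the files. A mean of 1 TPM over the 26 libraries was reached by 1 of these, CG8654, which was singled out after its values were seen. Its mean was 3.28 TPM in WT, 0.0791 TPM in Zf5 and 0.00695 TPM in Zld294. Between Tollo and Toll-6 lie 7 annotated genes, of which CG7255 had means of 29.9, 18.6 and 25.2 TPM in the same order. These means were not tested.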
